A study of Mus musculus with 9 samples.

Results

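The CD300 and SLAM families are immunoglobulin-type receptors of immune cells, and 10 of their genes were followed here in sorted microglia: Cd300a, Cd300lb, Cd300ld, Cd300lf, Cd244, Cd48, Cd84, Slamf7, Slamf8 and Slamf9. They were taken by symbol from 23238 gene symbols, and the set was chosen on the rise of Cd300lf and Cd244 between NMO and NMO+CL, so those values are a description, and no p value is given for these 2 genes. They were part of the fit across all genes, and their calls enter only as counts. All 10 had an entry, 9 passed the filter on low counts, and Cd300lb did not.

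RNA was measured on day 1 in CD45+ CD11b+ P2ry12+ cells sorted from the brain of wild-type female C57BL/6N mice 12 weeks old, and 9 libraries in 3 groups of 3 were compared. Normal mice were untreated, NMO mice received patient IgG against aquaporin-4 with human complement into one striatum as a model of neuromyelitis optica, and NMO+CL mice were also given clodronate liposomes into the peritoneum 6 h earlier, which deplete circulating phagocytes. NMO+CL was set against NMO to ask how microglia of the injected brain differ when those cells are depleted. Each library was a pool of 3 mice, and the study calls the 3 pools of a group independent. A control IgG and empty liposomes were not analysed here. The effects of the injection, the antibody and the complement therefore cannot be told apart, nor can those of clodronate and its liposome.

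The libraries held 5788234 to 7837219 counts. All 10 of the microglia markers listed, Tmem119 and Csf1r among them, were detected in every group, with a summed level of 34121 to 38746 CPM (counts scaled to a library of 1000000) in Normal, 29361 to 34172 in NMO and 19870 to 27510 in NMO+CL. The gate marker P2ry12, a purine receptor, averaged 2438 CPM in Normal mice, 1645 in NMO and 352 in NMO+CL. Itgam, which encodes CD11b, averaged 703, 662 and 576 CPM, and Ptprc, which encodes CD45, averaged 412, 418 and 519 CPM, in the same order. Of the 10 microglia markers, edgeR called 7 lower and 0 higher in NMO+CL against Normal, and 3 were not called. P2ry12, Gpr34 and Siglech were among the 7, whereas Tmem119 and Csf1r were not. Gpr34 fell from 840 CPM in Normal mice to 113 with clodronate, and Siglech from 1355 to 329. Against NMO, 4 markers were called lower in NMO+CL. Siglech was the 1 marker called lower in NMO against Normal. NMO replicate 2 stood apart in 41 genes that had 0 counts there and at least 20 in each of the other 8 libraries. In bulk samples fewer cells of a type and less RNA per cell cannot be told apart.

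CD300 receptors sit on myeloid cells and bind lipids such as phosphatidylserine, which dying cells expose. Cd300a and Cd300lf have inhibitory tyrosine motifs in their tails that recruit the phosphatase SHP-1 (Ptpn6), while Cd300lb and Cd300ld have short tails and signal through the adaptors DAP12 (Tyrobp) and the Fc receptor gamma chain (Fcer1g). Most SLAM receptors bind a copy of themselves on a neighbouring cell, but CD244 binds CD48, which is held in the membrane by a lipid anchor, and the tails of Cd244, Cd84 and Slamf7 bind small adaptors of the SAP type.

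The promoters of 4 members are shown because their genes had different patterns: Cd300lf and Cd244 had the highest levels in NMO+CL, Cd48 encodes the CD244 ligand, and Slamf9 had its highest levels in NMO. Each is the RefSeq sequence of 300 bases on GRCm38.p6, 5′ to 3′ on the gene's strand, from 250 bases before the start of transcription to 50 after it. Capitals mark matches, on either strand, to GAGGAA (the core of PU.1 sites), TTNNGNAA (C/EBP), TGANTCA (AP-1), TTCNNNGAA (STAT) or GAAA and GAAA with 2 bases between them (IRF). The Cd300lf window is chr11:115133943-115134242 on the minus strand, the Cd244 window chr1:171558943-171559242, the Cd48 window chr1:171681742-171682041 and the Slamf9 window chr1:172475110-172475409, the last 3 on the plus strand.
Cd300lf: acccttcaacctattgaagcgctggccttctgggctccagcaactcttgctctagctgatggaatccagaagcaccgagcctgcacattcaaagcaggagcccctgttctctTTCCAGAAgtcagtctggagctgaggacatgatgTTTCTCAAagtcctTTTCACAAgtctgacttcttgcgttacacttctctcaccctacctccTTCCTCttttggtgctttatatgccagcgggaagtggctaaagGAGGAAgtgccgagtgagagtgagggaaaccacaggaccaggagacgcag
Cd244: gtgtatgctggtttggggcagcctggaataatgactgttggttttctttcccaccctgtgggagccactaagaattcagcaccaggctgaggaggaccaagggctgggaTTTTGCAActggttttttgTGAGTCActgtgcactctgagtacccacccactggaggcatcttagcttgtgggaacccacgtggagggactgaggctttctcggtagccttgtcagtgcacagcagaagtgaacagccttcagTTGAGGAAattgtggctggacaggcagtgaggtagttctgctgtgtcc
Cd48: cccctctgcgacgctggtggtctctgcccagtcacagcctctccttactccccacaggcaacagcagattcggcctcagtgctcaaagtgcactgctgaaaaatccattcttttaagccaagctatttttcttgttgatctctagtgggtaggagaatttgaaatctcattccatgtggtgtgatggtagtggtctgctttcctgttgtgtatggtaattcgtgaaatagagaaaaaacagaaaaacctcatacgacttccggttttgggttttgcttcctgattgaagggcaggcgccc
Slamf9: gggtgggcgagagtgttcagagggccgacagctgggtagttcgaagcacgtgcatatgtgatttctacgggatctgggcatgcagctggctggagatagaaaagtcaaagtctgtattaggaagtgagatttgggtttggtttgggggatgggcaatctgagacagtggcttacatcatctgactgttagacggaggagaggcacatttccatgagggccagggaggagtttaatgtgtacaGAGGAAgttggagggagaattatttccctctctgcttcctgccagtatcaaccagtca

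The Cd300lf window held 2 PU.1 and 3 C/EBP matches. The Cd244 window held 1 PU.1, 2 C/EBP and 1 AP-1 match, and the PU.1 match lies inside a C/EBP match at the start of transcription. The Slamf9 window held 1 PU.1 match, and the Cd48 window had none of these letters. Over the 10 members, 7 windows held the PU.1 core, which 28.3% of 32851 mouse promoter windows of this length also hold. The C/EBP letters were in 6 of 10 windows (40.7% of all promoters), AP-1 in 4 (7.81%), IRF in 1, that of Slamf8 (3.44%), and STAT in 0 (8.30%). A match is a run of letters and no measurement of binding.

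By the GENCODE M21 annotation of GRCm38, the 4 CD300 genes lie on chromosome 11 between 114890041 and 115133992, and the 6 SLAM genes on chromosome 1 between 171559193 and 172590568, where Cd244 is listed as Cd244a. Counts came from reads at the 3′ ends of transcripts. No run of 75 bases, the length of a read, in the last 500 transcript bases of a member occurred on the same strand in a transcript of another gene. Shorter or less exact likeness is common, since stretches of at least 40 bases with 90% identity or more, in those last 500 bases, were shared with 1183 other genes for Cd300lf, 2335 for Cd300ld and 12 for Cd244, and multiple alignments were counted. The 3′ end of Slamf7 overlaps Gm37787, which lies on the other strand and matches it over 305 bases, and the use of strand in counting was not given in the sources used here, so reads of these 2 genes may not be separated.

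Cd300lf encodes CD300f, an inhibitory lipid receptor that limits myeloid activation. Its level was 0.955, 2.70 and 3.02 CPM in the Normal libraries, 11.2, 6.93 and 3.84 in NMO, and 74.7, 204 and 111 in NMO+CL. The 3 groups did not overlap: all NMO libraries lay above all Normal ones, and all NMO+CL libraries lay above all NMO ones. The counts behind these levels were 6 to 18 in Normal, 24 to 89 in NMO and 513 to 1263 in NMO+CL. The fitted log2 fold change was 4.14 (SE 0.46) for NMO+CL over NMO, a 17.6-fold higher level. Against Normal it was 1.72 (SE 0.49) for NMO and 5.86 (SE 0.52) for NMO+CL.

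Cd244 encodes CD244, a receptor best known from natural killer cells that can activate or inhibit. It stood at 0.159, 3.15 and 5.37 CPM in Normal, 14.2, 13.9 and 5.27 in NMO, and 104, 201 and 110 in NMO+CL. NMO+CL was above every other library, whereas NMO replicate 3 was just below Normal replicate 3, so NMO and Normal overlapped. Counts ran from 1 to 32 in Normal, 33 to 116 in NMO and 690 to 1241 in NMO+CL. The fitted log2 fold change was 3.63 (SE 0.55) for NMO+CL over NMO, a 12.4-fold higher level, with 1.95 (SE 0.58) for NMO over Normal and 5.58 (SE 0.62) for NMO+CL over Normal. The last 2 values rest on few Normal counts, and were 2.70 and 6.35 without Normal replicate 3 and 1.38 and 5.02 without Normal replicate 1.

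**Figure D1:**
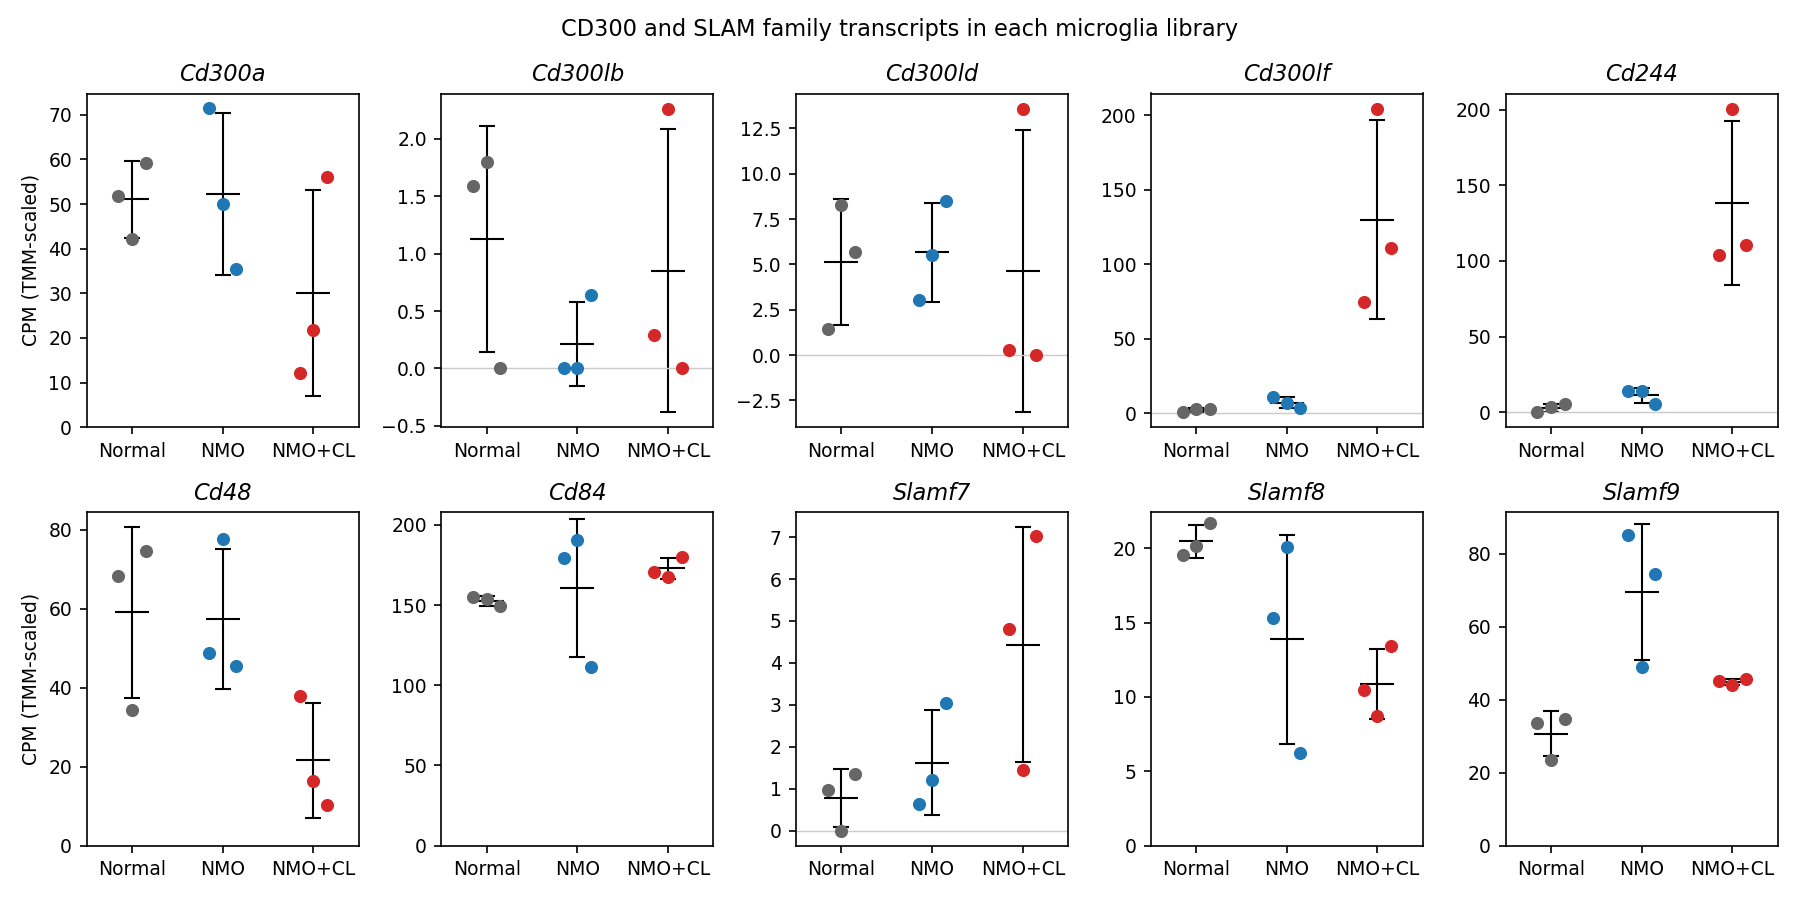
Level of each of the 10 genes in CPM (vertical axes, TMM-scaled, each with its own range) in the 3 Normal, 3 NMO and 3 NMO+CL libraries; points are libraries and bars the mean ± SD. Cd300lf and Cd244 reach 74.7 to 204 and 104 to 201 CPM in NMO+CL, Cd48 has its lowest mean there, and Slamf9 is highest in NMO.

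Cd300lf and Cd244 ranked the libraries alike at the top. NMO+CL replicate 2 was highest for both genes, followed by replicates 3 and 1 of that group and then by NMO replicates 1 and 2. The Pearson correlation of their log2 CPM over the 9 libraries was 0.970, and it was 0.853 after the group means were removed. The libraries share their depth and their mixture of cells between the genes, and these values are a description.

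**Figure D2:**
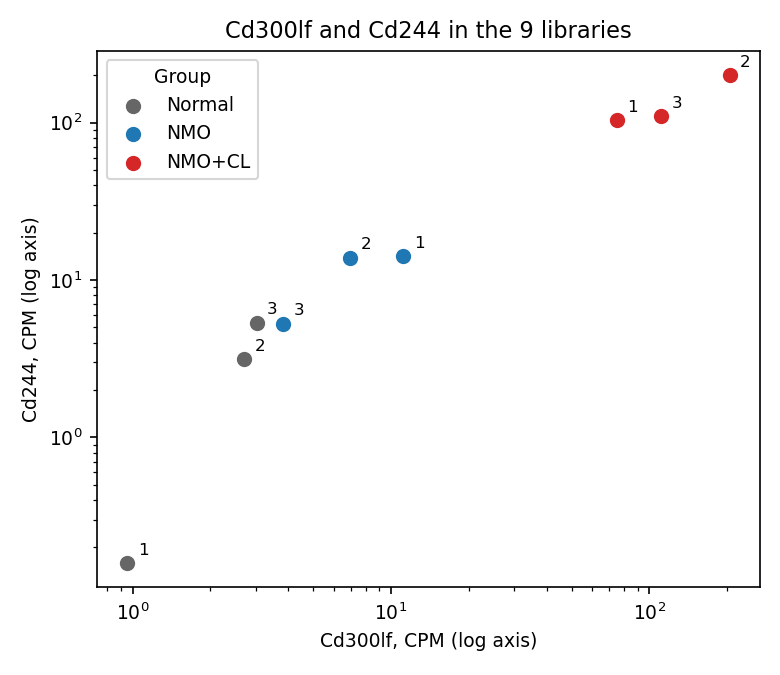
Cd300lf (horizontal) against Cd244 (vertical) in CPM on log axes, with 1 point per library, coloured by group and numbered by replicate. The 3 NMO+CL libraries lie apart at 74.7 to 204 CPM of Cd300lf, and NMO replicate 3 lies beside the Normal libraries.

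Cd300a, the other inhibitory receptor of the family, was measured at 51.9, 42.1 and 59.3 CPM in Normal, 71.5, 49.9 and 35.5 in NMO, and 12.2, 21.7 and 56.1 in NMO+CL. The groups overlapped, because NMO+CL replicate 3 was as high as the Normal libraries while replicates 1 and 2 were below all of the others. NMO differed from Normal by a log2 fold change of 0.04 (SE 0.42, edgeR adjusted p = 0.994) and NMO+CL from Normal by -0.77 (SE 0.42, adjusted p = 0.317). Without NMO+CL replicate 3 the second value was -1.59 with an adjusted p of 0.0118, so the call turned on that library. NMO+CL over NMO was -0.80 (SE 0.42), and -1.63 without that library.

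The activating CD300 receptors had few counts. Cd300ld was measured at 1.43, 8.26 and 5.71 CPM in Normal, 3.01, 5.50 and 8.47 in NMO, and 0.291, 13.6 and 0 in NMO+CL, where replicate 2 held 84 of the 86 counts. The libraries of a group spread widely, and the log2 fold changes were 0.14 (SE 1.28, adjusted p = 0.992) for NMO and -0.15 (SE 1.28, adjusted p = 0.973) for NMO+CL against Normal, and without NMO+CL replicate 2 the latter was -4.94 (adjusted p = 0.0897). Cd300lb had 10, 12 and 0 counts in Normal, 0, 0 and 4 in NMO, and 2, 14 and 0 in NMO+CL. A count of 0 allows up to 3 counts, which is 0.358 to 0.504 CPM in these libraries, counting error only.

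Cd300a gave most of the CD300 reads in Normal and NMO, and Cd300lf most of them in NMO+CL. Of the reads of the 4 CD300 members, the Normal libraries had 85.6% ± 8.20 from Cd300a and 3.70% ± 1.74 from Cd300lf (mean ± SD, n = 3). In NMO the shares were 78.9% ± 5.19 and 10.7% ± 2.58. In NMO+CL Cd300lf held 85.4%, 84.5% and 66.4% of them (replicates 1 to 3). These shares were not tested, since the choice of the genes used them.

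Cd48, the ligand of CD244, was the member called lower. It was measured at 68.3, 34.3 and 74.7 CPM in Normal, 48.8, 77.7 and 45.4 in NMO, and 38.0, 16.5 and 10.4 in NMO+CL. All NMO+CL libraries were below all NMO libraries, but NMO+CL replicate 1 was above Normal replicate 2. Against Normal, Cd48 in NMO+CL fell by 1.45 on the log2 scale (SE 0.42, adjusted p = 0.0371), to 0.367 of the Normal level, and NMO was at -0.04 (SE 0.41, adjusted p = 0.992). The call was lost without Normal replicate 1 (adjusted p = 0.127), Normal replicate 3 (0.160), NMO+CL replicate 2 (0.142) or NMO+CL replicate 3 (0.106), and in a fit of these 2 groups only (0.0510). Without NMO+CL replicate 1 the log2 fold change was -2.13, and over the fits with a library left out it ran from -2.13 to -1.11. Over NMO the value was -1.40 (SE 0.42), and -2.09 without NMO+CL replicate 1.

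For each 100 Cd244 reads there were 42900, 1086 and 1391 Cd48 reads in the Normal libraries, the first of which rests on a single Cd244 read. The NMO libraries had 344 to 861 and the NMO+CL libraries 8.22 to 36.5, a description that leans on Cd244, which the choice of the set used. Reads at 3′ ends do not measure the proteins.

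Cd84, a self-binding receptor of myeloid cells and platelets, held the largest share of the SLAM reads in every library but NMO+CL replicate 2, where Cd244 held more (45.7% against 38.2%). It was measured at 155, 154 and 149 CPM in Normal, 179, 191 and 111 in NMO, and 171, 168 and 180 in NMO+CL. Normal libraries were close together, and the NMO libraries spread on both sides of them. The log2 fold change was 0.07 (SE 0.21, adjusted p = 0.977, interval of 1.96 SE from -0.34 to 0.48) for NMO and 0.18 (SE 0.21, adjusted p = 0.724, interval from -0.23 to 0.59) for NMO+CL against Normal, although all 3 NMO+CL libraries were above all 3 Normal ones.

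Slamf9, a receptor with a short tail, had its highest levels in NMO. It was measured at 33.7, 23.6 and 34.6 CPM in Normal, 85.2, 49.0 and 74.5 in NMO, and 45.0, 44.0 and 45.6 in NMO+CL. The 3 groups did not overlap, with NMO+CL between Normal and NMO. For NMO over Normal the log2 fold change was 1.18 (SE 0.28) and missed the threshold at an adjusted p of 0.0711. It passed with library totals alone (adjusted p = 0.0381), without the filter (0.0124) and with DESeq2 (0.0124). NMO+CL over Normal gave 0.55 (SE 0.28, adjusted p = 0.262), and NMO+CL over NMO -0.63 (SE 0.27).

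Slamf8, another receptor with a short tail, which is found on macrophages, was measured at 19.6, 20.1 and 21.7 CPM in Normal, 15.3, 20.1 and 6.23 in NMO, and 10.5, 8.73 and 13.4 in NMO+CL. All NMO+CL libraries lay below all Normal ones, and NMO overlapped both. The log2 fold change was -0.91 (SE 0.47, adjusted p = 0.275) for NMO+CL and -0.56 (SE 0.46, adjusted p = 0.822) for NMO against Normal. Slamf7, known from natural killer cells and macrophages, had 6, 0 and 8 counts in Normal, 5, 10 and 19 in NMO, and 33, 9 and 44 in NMO+CL. All NMO+CL libraries were above all Normal ones in CPM (1.46 to 7.03 against 0 to 1.34), and the fitted log2 fold change was 2.51 (SE 1.61, adjusted p = 0.410). Slamf7 passed the filter on low counts through NMO+CL, where it was highest, and was not kept in the fits of 2 groups only that include Normal, so this separation supports nothing.

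Of the reads of the 6 SLAM members, Cd244 held 1.09% ± 0.934 in the Normal group, 3.40% ± 1.09 in the NMO group and 34.6% ± 9.72 in the NMO+CL group (mean ± SD, n = 3). Cd84 held 57.8%, 50.5% and 44.3%, and Cd48 21.7%, 18.2% and 5.59%. The summed level of the 5 SLAM members other than Cd244 was 264 ± 27.8 CPM in Normal mice, 303 ± 54.2 in NMO and 255 ± 15.5 in NMO+CL. Cd84 gives most of this sum, which adds genes that were higher and lower and does not describe them singly.

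**Figure D3:**
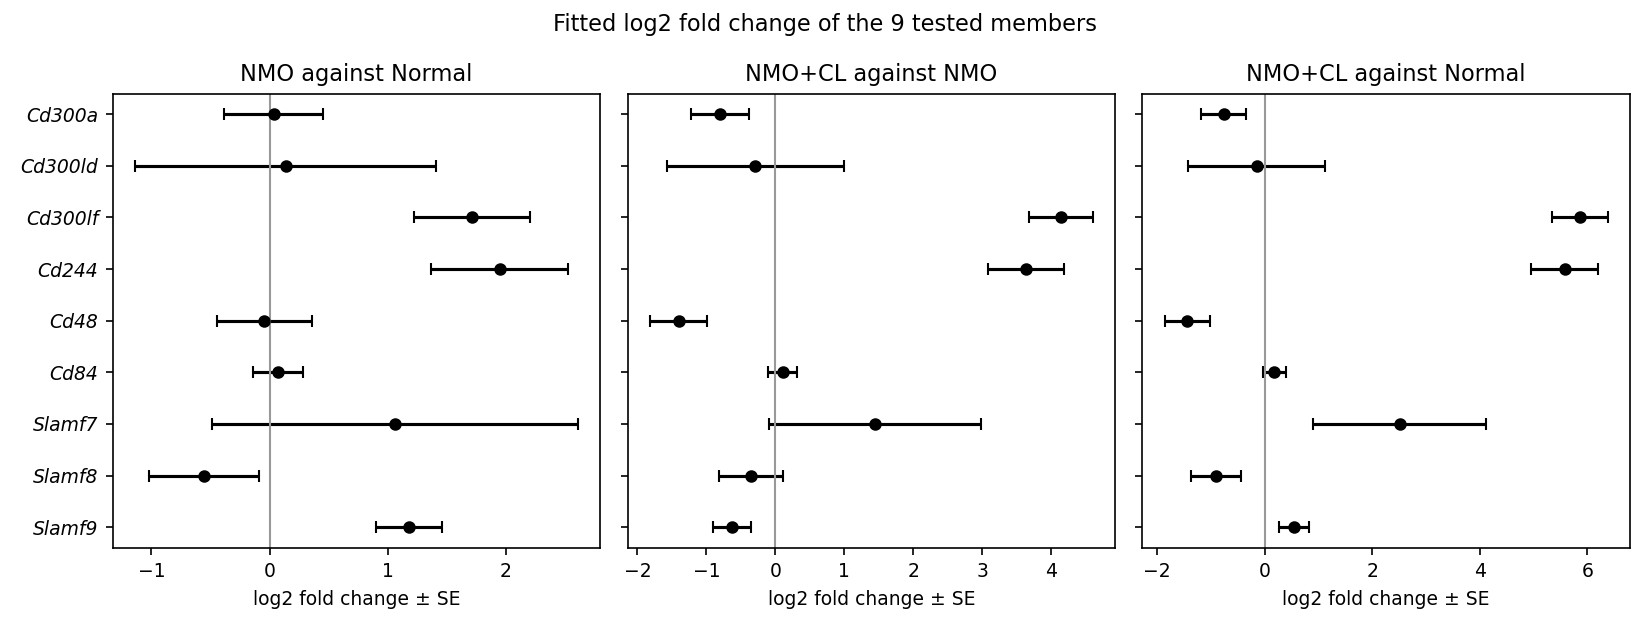
Fitted log2 fold change (horizontal axis, points with SE bars) of the 9 genes that passed the filter, in 3 panels for NMO against Normal, NMO+CL against NMO and NMO+CL against Normal; axes differ between panels. Cd300lf and Cd244 are at 4.14 and 3.63 in the middle panel, Cd48 is at -1.40, and Cd300ld and Slamf7 have the widest bars.

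Counted over the 9 genes, edgeR's quasi-likelihood test called 0 in NMO against Normal, where 0.496% of all 12292 genes tested were called. At an unadjusted p under 0.05 there were 3, for which no share over all genes is given. DESeq2 called 2, Cd300lf and Slamf9, beside 241 of all genes, and limma-voom 0, beside 43. The 3 and the 2 include genes the choice rests on, so nothing is read from them. In NMO+CL against NMO edgeR called 2, Cd300lf and Cd244, beside 1.59% of all genes. The rule used this contrast, so nothing is read from the count. In NMO+CL against Normal edgeR called 3, Cd300lf and Cd244 higher and Cd48 lower, beside 9.22% of all genes. Of these 3, 2 are the genes the choice rests on. The median log2 fold change of the 9 was 0.14, -0.29 and 0.18 in the 3 contrasts, against -0.01 over all genes in each.

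The groups did not overlap for 2 of the 9 in NMO against Normal (Cd300lf and Slamf9, both higher), where 17.4% of all genes did not overlap. For NMO+CL and NMO it was 4 of 9 (Cd300lf and Cd244 higher, Cd48 and Slamf9 lower), beside 17.1%. For NMO+CL and Normal it was 6 of 9 (Cd300lf, Cd244, Cd84, Slamf7 and Slamf9 higher, Slamf8 lower), beside 28.7%. Cd300lf and Cd244, which the choice of the set fixed, are in the last 2 counts, so nothing is read from the count for NMO+CL and NMO, and without them and without Slamf7, which passed the filter through NMO+CL, the count for NMO+CL and Normal was 3 of 6. The contrasts share libraries, and their counts are not independent.

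Of 12 other genes of these families, 10 had an entry and 4 passed the filter, namely Ly9, Slamf1, Slamf6 and Gm11710 (an older symbol of Cd300ld4). In edgeR 0 of the 4 were called in any contrast, as in DESeq2 and limma-voom, and 1, Ly9 in NMO+CL against Normal, had an unadjusted p under 0.05. Ly9, a self-binding SLAM receptor, was measured at 5.41, 5.11 and 7.05 CPM in Normal, 8.41, 16.7 and 5.75 in NMO, and 10.9, 11.5 and 20.3 in NMO+CL, a log2 fold change of 1.28 over Normal (SE 0.57, adjusted p = 0.194). Slamf1 had 18 to 67 counts and Slamf6 3 to 101 over the 9 libraries, and Gm11710 had 0 to 16. The entry Cd300c may stand for Cd300c or for Cd300c2, whose older symbol it is. The others, Cd2, Cd300c, Cd300e, Cd300lg, Cd300lh and Gm11711, had at most 35 counts in any library.

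The signalling partners of the receptors were also counted. Of 21 adaptors, phosphatases and kinases listed, 18 were tested. For NMO over Normal and for NMO+CL over NMO edgeR called 0 and 0, beside 0.496% and 1.59% of all genes. DESeq2 and limma-voom also called 0 in both, beside 241 and 43 of all genes in the first contrast and 481 and 183 in the second. In each contrast 2 unadjusted p values were under 0.05, for which no share over all genes is given. The median log2 fold changes were 0.07 and -0.08, and that for NMO+CL over Normal was 0.03.

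Tyrobp, the adaptor of the activating CD300 receptors, averaged 620 CPM in Normal mice, 630 in NMO and 634 in NMO+CL, and Fcer1g averaged 811, 798 and 898. Ptpn6, the SHP-1 phosphatase, averaged 323, 356 and 339 CPM. None of these 3 was called in any contrast. The SAP adaptors of the SLAM tails were at or near 0. Sh2d1a, which encodes SAP, had 0 counts in all 9 libraries, and Sh2d1b1, which encodes EAT-2, had 0 to 27 counts and did not pass the filter.

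Of 26 other paired receptors of myeloid cells listed, 20 were tested. In NMO against Normal edgeR, DESeq2 and limma-voom called 0 of them, beside 61, 241 and 43 of all genes. There 7 unadjusted p values were under 0.05, and no share over all genes is given for unadjusted p. Called in NMO+CL against NMO was 1, Sirpa, the receptor of CD47 that restrains phagocytosis, which fell by a log2 value of 1.06 (adjusted p = 0.00392), beside 1.59% of all genes. DESeq2 called 5 of the list in that contrast and limma-voom 4, beside 481 and 183 of all genes, and 9 had an unadjusted p under 0.05. Against Normal, 6 were called higher and 2 lower in NMO+CL, beside 9.22% of all genes. Of the 6, Pilrb1 and Pilrb2 passed the filter on low counts only through NMO+CL, where they were highest, so nothing is read from their calls. DESeq2 called 10, both of these included, beside 1617 of all genes, and limma-voom 7, Pilrb2 included, beside 1080. Sirpa fell by 1.27 (adjusted p = 1.39e-04), from 1646 to 681 CPM. Among those higher was Pilra, an inhibitory receptor, with a log2 fold change of 1.94 (adjusted p = 2.63e-04), from 35.6 to 136 CPM. Treml2 was at 2.15 (adjusted p = 9.36e-04). Lilrb4a, an inhibitory receptor with the near copy Lilrb4b, so that shared reads are uncertain, was at 4.34 (adjusted p = 8.41e-04). With a library left out its value ran from 3.75 to 5.25. Trem1, which amplifies inflammation through DAP12, was called at an adjusted p of 0.00118 with 4, 0 and 0 counts in Normal, 18, 12 and 17 in NMO and 155, 187 and 46 in NMO+CL. The list's median log2 fold changes were 0.56, 0.22 and 0.97, against -0.01 over all genes. The last includes Pilrb1 and Pilrb2, at 5.49 and 7.36, so it leans in part on genes kept through NMO+CL.

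**Figure D4:**
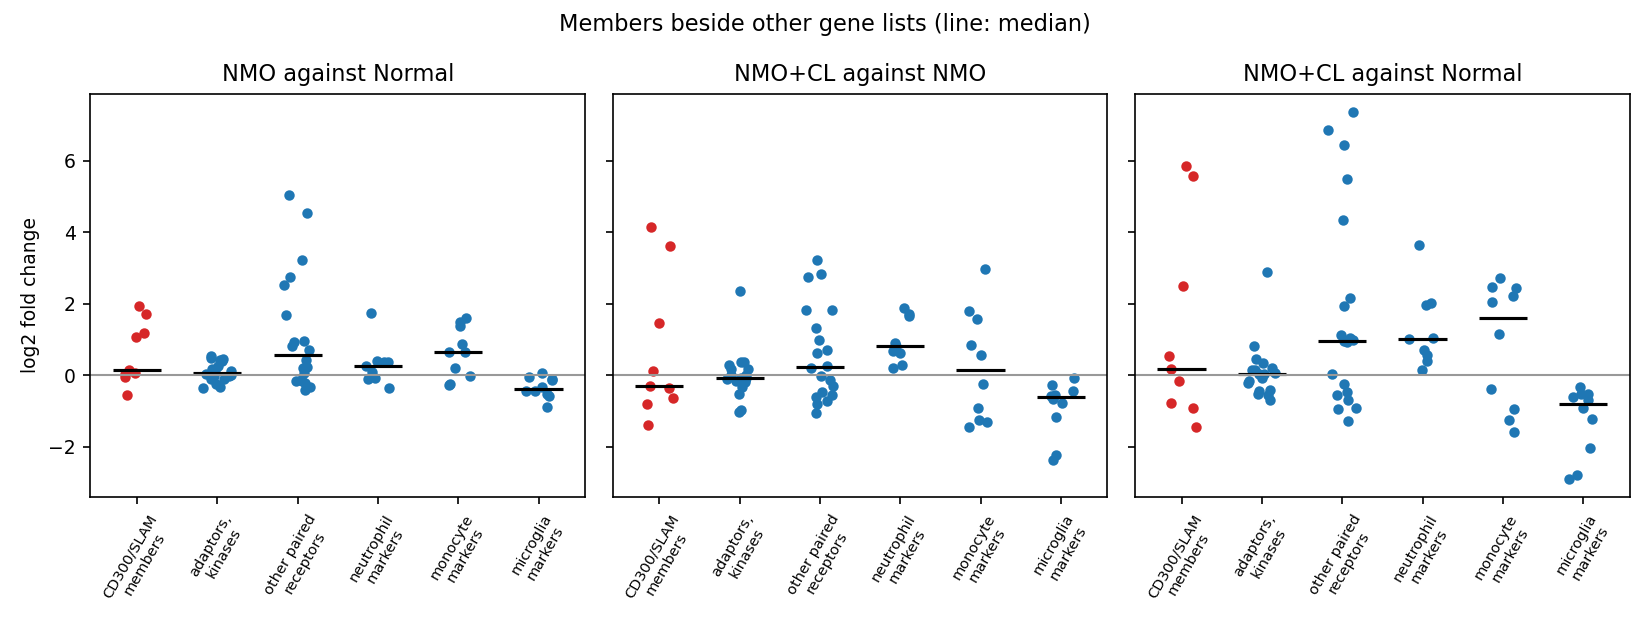
Log2 fold change (vertical axis) of every tested gene in 6 lists, 1 point per gene with the median as a line, in 3 panels, 1 per contrast. In NMO+CL against Normal the medians are 0.18 for the CD300 and SLAM members, 0.03 for adaptors and kinases, 0.97 for other paired receptors, 1.00 for neutrophil markers, 1.59 for monocyte markers and -0.80 for microglia markers. Of the 10 monocyte markers 6 lie above 0 there.

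CD300 and SLAM receptors are also made by other leukocytes, so markers of those cells are given beside them. Of 11 neutrophil markers 10 had an entry, and their summed level was 532, 41.5 and 46.4 CPM in the Normal libraries, 255, 103 and 384 in NMO, and 1295, 265 and 523 in NMO+CL replicates 1, 2 and 3. In NMO+CL, Cd300lf and Cd244 were highest in replicate 2, which had the lowest neutrophil sum of that group, and lowest in replicate 1, which had the highest. Of the 9 neutrophil markers tested, edgeR and DESeq2 called 0 in any contrast. In NMO+CL against Normal limma-voom called 2, beside 1080 of all genes. At an unadjusted p under 0.05 there were 0, 1 and 2 in the 3 contrasts.

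The 10 monocyte markers summed to 70.8 to 108 CPM in Normal, 83.1 to 115 in NMO and 54.7 to 176 in NMO+CL, where 1 of them, Fn1, was called higher against Normal. In the NMO+CL replicates 1, 2 and 3 the monocyte sums were 176, 106 and 54.7 CPM, while Cd300lf and Cd244 were in the order 2, 3, 1 from high to low. Border macrophage markers summed to at most 35.6, 33.0 and 31.0 CPM in a library of the 3 groups (31.0, 30.2 and 12.8 in the NMO+CL replicates). Of its defining markers, Cd163 had 0 counts in all NMO and NMO+CL libraries, Mrc1 had 116, 112 and 49 in NMO+CL, and Lyve1 had 30, 56 and 31. Lymphocyte markers, including those of natural killer cells, summed to 5.04 to 7.66, 1.44 to 5.77 and 1.46 to 7.60 CPM. In the NMO+CL replicates 1, 2 and 3 the lymphocyte sums were 1.46, 7.60 and 3.36 CPM, the same order as Cd300lf and Cd244. Cd3e was at 0 in every library, whereas the natural killer marker Ncr1 had 12 counts in NMO+CL replicate 2 and 0 in the other 8 libraries. Gzma had 0, 29 and 9 counts in the NMO+CL replicates and 17 in Normal replicate 2, while Nkg7 had 6, 2 and 0 and Klrb1c 4, 0 and 0 in the NMO+CL replicates. Astrocyte and oligodendrocyte markers summed to 177 to 213, 101 to 134 and 85.2 to 127 CPM. The part of these cells in the members' levels was not tested.

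The genes most like Cd300lf over the 9 libraries, by the Pearson r of log2 CPM among the 10541 genes that averaged 20 counts or more, were Ifi30 (0.987), Alox5 (0.981), Id2 (0.979), Naip2 (0.976) and Aimp2 (0.974). Ifi30, a lysosomal thiol reductase used in antigen processing, averaged 172 CPM in Normal mice, 279 in NMO and 674 in NMO+CL. Alox5, the enzyme that starts leukotriene synthesis, averaged 29.8, 37.3 and 93.9 CPM. Id2, an inhibitor of helix-loop-helix transcription factors, averaged 236, 282 and 614 CPM, and Naip2, a sensor of bacterial secretion proteins, 87.7, 96.0 and 200.4 CPM.

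Among the genes most like Cd244 were Gapdh (0.986), Hspd1 (0.979), Rftn1 (0.970) and Vmp1 (0.968). The entry Gapdh averaged only 22.7 CPM in Normal mice, 30.9 in NMO and 44.7 in NMO+CL. Hspd1, a mitochondrial chaperone, averaged 93.9 CPM in Normal mice, 134 in NMO and 224 in NMO+CL, and Rftn1, a protein of membrane rafts, 6.12, 13.2 and 35.2 CPM. After the group means were removed, r was 0.458 to 0.903 for the 5 genes of Cd300lf and 0.806 to 0.923 for these 4 genes of Cd244. Since Cd300lf and Cd244 were chosen for their rise in NMO+CL, genes that rose there rank high, and these values are a description.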

How the data were processed

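RNA of sorted microglia was made into QuantSeq 3′ libraries and sequenced by the authors as single 75-base reads, which were aligned with Bowtie2 to mm10. bedtools then counted the alignments over each gene, multiple alignments included. The authors deposited whole-number read counts that were not normalized. The versions, the annotation and the use of strand are not given in the sources used here. Each library had 23282 entries for 23238 symbols, and 35 repeated symbols were summed.

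Counts were analysed in R 4.3.3 with edgeR 4.0.16. Genes were kept by filterByExpr (minimum count 10, minimum total 15), which left 12292. A quasi-likelihood model with TMM scaling took all 9 libraries together and gave each group a coefficient. Tests were two-sided with Benjamini-Hochberg adjustment over every gene tested in that contrast, and calls were made under an adjusted p of 0.05. The step was run on simulated data that used the spread expected at each gene's level. Some of the changed genes were not called there, so a gene not called is not shown to be unchanged. CPM are counts relative to TMM-scaled totals, depend on transcript ends, and were not compared between genes as amounts of RNA. Shares of family reads compare reads only. Errors beside CPM are SD between libraries. The common biological coefficient of variation was 0.519, and replicates differed by 23.2 to 55.5 in chi-square per degree of freedom. Intervals and floors cover counting error only where they come from counts.

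The members, the gene lists and the tests were chosen with earlier results of these data known. No p value is given for Cd300lf and Cd244, nor for any member in NMO+CL against NMO. Named genes are all members, every relative with an entry, up to 5 called genes with the smallest adjusted p per contrast in the lists of adaptors and paired receptors, Tyrobp, Fcer1g, Ptpn6, Sh2d1a, Sh2d1b1, the sort markers, and the 5 genes with the highest Pearson r with Cd300lf and with Cd244 (log2 CPM, prior count 2). Some genes that this rule names are not reported here. Promoters are RefSeq windows on GRCm38.p6, found for 10 of 10 members. The alternatives were RLE scaling, library totals alone, totals without the ribosomal entry Rn45s, no filter, DESeq2 1.42.0, limma-voom (limma 3.58.1), a replicate block, a fit of 2 groups only, and each of the 9 libraries left out.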

Additional observations from a re-analysis of the deposited data

How the results depend on the processing

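Cd300lf and Cd244 kept their direction in every contrast under all 17 alternatives, with log2 fold changes for NMO+CL over NMO of 3.65 to 4.60 and 3.26 to 3.86. With a library left out, NMO over Normal ran from 1.26 to 2.02 for Cd300lf and from 1.38 to 2.70 for Cd244, and NMO+CL over Normal from 5.37 to 6.14 and from 5.02 to 6.35. The number of members called in NMO against Normal was 0, but 1 with library totals alone, 3 without the filter and 2 with DESeq2. These fits called 96, 223 and 241 of all genes. Leaving out each library in turn gave 0 to 0, 2 to 3 and 2 to 3 members called in NMO against Normal, NMO+CL against NMO and NMO+CL against Normal, where the full set gave 0, 2 and 3. Cd300lf and Cd244 were among the calls each time in the last 2 contrasts, which the choice of the set fixed, so these counts are no sign of stability. Over all genes, the full set gave 61, 196 and 1133 calls. With a library left out these ranged from 20 to 75, 51 to 231 and 649 to 1265. Over all 17 alternatives, DESeq2 and the fit without the filter included, they ranged from 20 to 241, 51 to 496 and 649 to 1617.

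Values near 0 changed sign, and the cause was not tested. In NMO against Normal, Cd48 was at 0.074 with library totals alone and 0.027 with limma-voom. With a library left out, Cd48 ranged from -0.33 to 0.14, Cd300a from -0.28 to 0.25, Cd300ld from -0.31 to 0.66 and Cd84 from -0.076 to 0.28. In NMO+CL against Normal, Cd300ld ranged from -4.94 to 0.43. Library totals alone moved the median of all genes by 0.11 on the log2 scale.

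With replicate number as a block, 0, 2 and 3 members were called, as without it. Same-numbered libraries of different groups did not deviate together (r from -0.0337 to 0.0624), so the numbers were not taken as pairs. Cd300ld and Slamf7 had biological coefficients of variation of 1.03 and 1.08, and Cd300lb had at most 14 counts in a library.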
